A study of Mus musculus with 203 samples.

Results

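The comparison described here is of 20 airway samples, 9.85% of all samples of the series: 10 from mice given house dust mite (HDM) extract, cigarette smoke (CS) and dexamethasone (DEX), and 10 from mice given HDM, normal air and DEX. Samples were placed in the groups by their titles, 11-Airway-HDM.CS.DEX and 11-Airway-HDM.AIR.DEX. As stated below, members and gene lists were chosen with earlier results of these data known. Counts of list members that passed are therefore descriptions and not tests. All were female Balb/C mice aged 18 to 20 weeks. HDM was given intranasally, on 5 days per week for 3 weeks and, per the labels, 3 times per week from week 4 to week 11, though the wording does not settle whether the same mice received both courses. Smoke was given 2 times per day on 5 days per week for 8 weeks, and DEX during week 11. The labels state no dose of smoke or DEX. Both groups carried HDM and DEX, so the comparison isolates the added smoke, which models the overlap of asthma with chronic obstructive pulmonary disease under steroid. Neither the effect of HDM nor that of DEX can be read from these 20 samples. The other 60 airway samples at 11 weeks formed 6 further groups of 10: HDM without DEX, PBS with DEX and PBS without DEX, each with smoke and with air. Airways were freed from the parenchyma by dissection under a microscope, and bulk RNA was sequenced.

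Smoke holds polycyclic aromatic hydrocarbons, which bind the aryl hydrocarbon receptor (AhR), a transcription factor that pairs with ARNT and switches on enzymes of xenobiotic metabolism and its own repressor, Ahrr. Oxidants in smoke act on a second factor, NRF2, which drives antioxidant genes, and Nqo1 answers to both. Glucocorticoids such as DEX act through the glucocorticoid receptor and repress many cytokine genes. Gamma delta T cells, alpha beta T cells and dendritic cells are lymphoid and myeloid residents of the airway wall, where type 1 conventional dendritic cells carry antigen to CD8 T cells and MHC class II molecules present it to CD4 T cells.

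Promoter sequences are shown for 3 of the AhR pathway genes that rose, because they differ in how many copies they hold of the core of the xenobiotic response element, to which the AhR and ARNT pair binds. Each window runs from 250 bases before to 50 bases after the gene's start, 5′ to 3′ on the gene's strand, from RefSeq, build GRCm38.p6. Capitals mark GCGTG, or CACGC where the core lies on the other strand. The Ahrr window is chr13:74292282-74292581, minus strand, and holds 3 copies, the Cyp1b1 window is chr17:79715012-79715311, minus strand, with 1 copy, and the Nqo1 window is chr8:107403156-107403455, minus strand, with none.
Ahrr: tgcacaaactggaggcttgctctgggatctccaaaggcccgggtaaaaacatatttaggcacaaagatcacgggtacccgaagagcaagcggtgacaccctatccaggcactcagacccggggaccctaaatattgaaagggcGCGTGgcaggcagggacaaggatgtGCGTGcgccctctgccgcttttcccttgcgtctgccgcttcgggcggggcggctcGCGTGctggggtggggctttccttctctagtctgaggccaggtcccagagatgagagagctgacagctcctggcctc
Cyp1b1: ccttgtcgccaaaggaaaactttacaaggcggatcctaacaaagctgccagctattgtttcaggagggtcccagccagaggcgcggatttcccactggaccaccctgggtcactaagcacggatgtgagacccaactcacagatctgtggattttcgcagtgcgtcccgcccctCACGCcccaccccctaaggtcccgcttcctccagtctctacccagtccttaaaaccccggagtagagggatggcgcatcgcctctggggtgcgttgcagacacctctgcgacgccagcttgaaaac
Nqo1: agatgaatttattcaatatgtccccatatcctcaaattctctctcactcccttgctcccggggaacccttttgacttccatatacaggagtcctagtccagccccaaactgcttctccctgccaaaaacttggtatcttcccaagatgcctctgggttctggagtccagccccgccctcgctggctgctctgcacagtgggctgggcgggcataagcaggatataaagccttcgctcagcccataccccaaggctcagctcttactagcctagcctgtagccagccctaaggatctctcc
The core, searched on both strands, was in 5 of the 9 AhR pathway promoters found in the table (55.6%) and in 32.4% of all 32851 promoters. The antioxidant response element core TGACNNNGC, searched the same way, was in 8 of 29 promoters of the NRF2 list (27.6%) and in 12.4% of all promoters, and none of the 3 windows printed held it. The list shares took 1 window per gene, while the shares of all promoters took every window. The motifs can overlap each other and were counted separately. Among AhR pathway genes not printed, the window of Ugt1a6a, which also rose, held no copy of the xenobiotic response element core. That of Cyp1a1, which did not pass in the comparison below, held 1. A match is a run of letters and not a measured binding site, and sequence outside the windows was not searched.

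Total counts per sample ran from 24200016 to 32262655 with air and from 23552500 to 33325773 with smoke. No gene was targeted and the airway label was therefore checked by marker genes. Summed club cell markers had a median of 26025 CPM (counts scaled to a library of 1000000) over the 20 airway samples and 22105 over the 20 parenchyma samples of mice given the same agents. Alveolar type II markers reached a median of 26261 CPM in airway and 32439 in parenchyma, so the airway samples also held alveolar RNA. Neither sum separated the tissues. Club cell sums ran from 14063 to 47358 CPM in airway and from 15211 to 29644 CPM in parenchyma. Type II sums ran from 16871 to 38702 CPM and from 27419 to 48036 CPM. Smooth muscle markers summed to a median of 535 CPM in airway against 246 in parenchyma, and cardiac muscle markers to 494 against 44.1. Samples are named by the X codes of their titles. Among those with air, X11 and X91 stood apart by small structural RNAs, whose sum was 18368 and 23868 CPM against 966 to 4529 CPM in the other 8 and 1377 to 4852 CPM in the smoke samples, and X11 also had the highest level of MHC class II genes. No pair within a group agreed within counting noise. Nothing in the labels says that each sample came from a separate mouse, so the p-values measure the spread between samples.

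Of 18015 genes tested, 1.13% were higher and 2.33% (419 genes) lower with smoke at an adjusted p under 0.05 in limma-voom. A change of at least 1 on the log2 scale was asked for as well, and 34 genes were then called higher (0.189%) and 54 lower (0.3%). The log2 fold change (log2FC) is smoke less air, and its median over all genes was -0.01. All 34 genes called higher were protein coding, while the 54 called lower held 39 protein-coding genes, 7 T cell receptor segments and 5 immunoglobulin segments. In 11 genes every smoke sample was above every air sample (0.0611%), and in 10 every smoke sample was below (0.0555%). Counts leaned on single samples: without smoke sample X159 the calls were 22 higher and 33 lower, and without smoke sample X19 those lower were 35. At adjusted p alone the share higher was 0.622% without X11, 0.661% without X151 and 0.639% without X159. The share lower was 1.13% without X11, 1.28% without X19, 1.35% without X39, 1.19% without X59, 1.12% without X71, 1.47% without X111, 1.32% without X151 and 0.805% without X159. With X11 and X91 both left out, 25 genes were called higher and 35 lower, and 54 of those 60 were calls of the full comparison. When limma was asked for a fold change beyond 1 on the log2 scale (treat) it called 0 genes in either direction, against 3033 genes at an unadjusted p under 0.05 in the plain test, and calls by edgeR for 0.622% and by DESeq2 for 0.822% of genes.

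**Figure D1:**
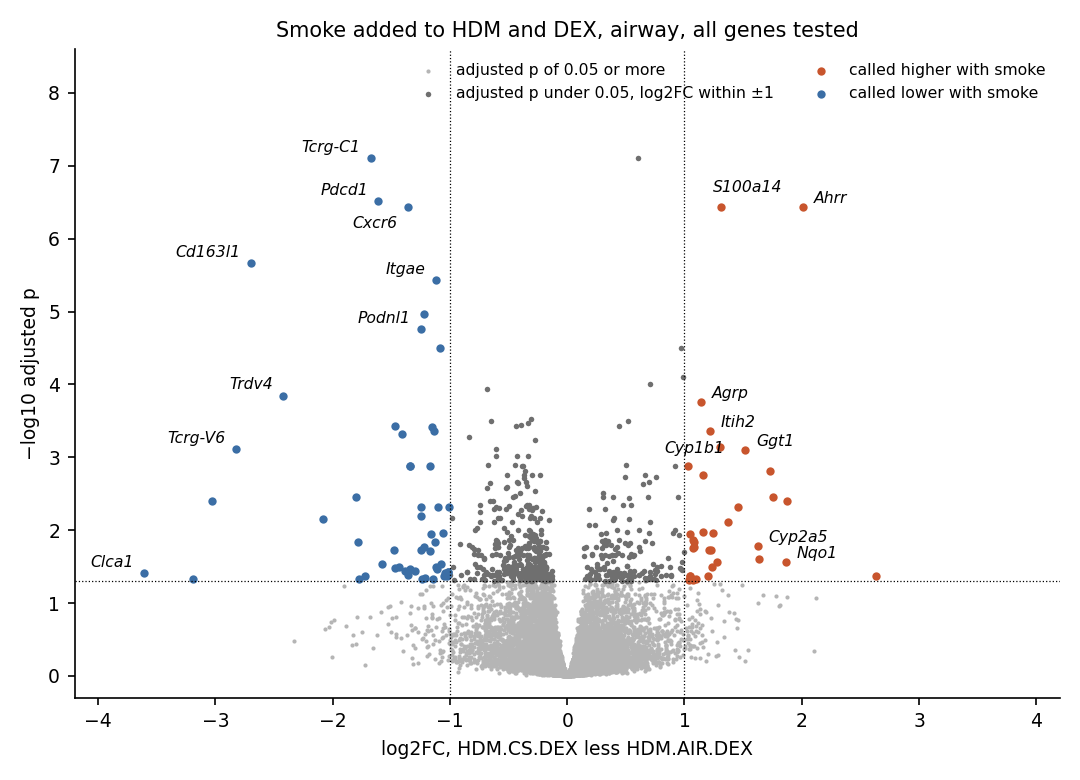
Each point is 1 of 18015 genes, with the log2FC of smoke over air on the x axis and the adjusted p as −log10 on the y axis. Orange and blue points are the 34 genes called higher and the 54 called lower, and the labelled AhR genes lie to the right and the gamma delta T cell genes to the left.

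Of 12 genes that answer to the AhR 11 were tested, 4 rose and none fell, beside 1.13% higher and 2.33% lower of all genes. The list median was 0.74 on the log2 scale against -0.01 over all genes. Ahrr, the repressor of the receptor (chromosome 13, 74211118 to 74292331, mm10, minus strand), lay between 0.115 and 1.02 CPM with air (median 0.413) and between 1.05 and 2.49 CPM with smoke (median 1.67). All smoke samples exceeded all air samples, with a log2FC of 2.01 (SE 0.27, limma-voom adjusted p = 3.72e-07). Nqo1, a quinone reductase (chromosome 8, 107388225 to 107403206, minus strand), ran from 2.93 to 4.93 CPM (median 3.33) with air and from 7.19 to 29.9 CPM (median 11.5) with smoke. Its groups did not overlap, and the log2FC was 1.87 (SE 0.51, adjusted p = 0.0274). The adjusted p was 0.0618 without X11 and X91 and 0.216 in limma-voom with only the genes that reached a CPM of 10 in 9 samples. Cyp1b1, a monooxygenase of aromatic hydrocarbons (chromosome 17, 79701537 to 79715061, minus strand), ran from 15.8 to 48.9 CPM (median 20.6) with air and from 32.2 to 66.4 CPM (median 44.1) with smoke. Of the smoke samples 3 exceeded every air sample and all 10 the air median, with a log2FC of 0.92 (SE 0.18, adjusted p = 0.0013). Ugt1a6a, a glucuronosyltransferase that shares exons with other Ugt1a genes and whose counts are therefore uncertain, rose by a log2FC of 0.99 (adjusted p = 7.96e-05). The receptor itself, Ahr, did not pass, at 94.5 CPM with air and 102.7 CPM with smoke in the median.

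Cyp1a1, the classic AhR target, did not pass. It lay between 2.83 and 35.3 CPM (median 14) with air and between 3.45 and 119.4 CPM (median 18.1) with smoke, and the groups overlapped, 4 smoke samples lying above every air sample. The log2FC was 1.05 (SE 0.59, adjusted p = 0.373), and its 95% confidence interval reached from -0.13 to 2.22. Aldh3a1, another target, had a median of 18.9 CPM with air and 41.1 CPM with smoke and an adjusted p of 0.217.

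Other enzymes that handle foreign compounds and glutathione were higher as well. Ggt1, the transferase that opens extracellular glutathione, was at 0.845 to 2.3 CPM (median 1.42) with air and at 2.73 to 7.93 CPM (median 3.59) with smoke, without overlap (log2FC 1.52, SE 0.29, adjusted p = 0.000803). Cyp2a5, a nicotine and coumarin hydroxylase, was at 73.4 to 323 CPM (median 106.3) with air and at 169.7 to 1358 CPM (median 311) with smoke, and 5 smoke samples lay above all air samples (log2FC 1.63, SE 0.41, adjusted p = 0.0167). Cyp2a5 is nearly identical to Cyp2a4, so that its share of the reads is uncertain, and leaving out X59 took its adjusted p to 0.0504. Aldh1a1, a retinaldehyde dehydrogenase, had medians of 726 and 1266 CPM (log2FC 0.69, adjusted p = 0.011, 0.0533 without X11 and X91). Cyp2a5 and Aldh1a1 were the only 2 of 22 airway xenobiotic enzymes to pass, and the list median was 0.19. Of 34 NRF2 genes 3 passed higher, Nqo1, Akr1b8 and Gss, and none lower, beside 1.13% and 2.33% of all genes. The list median of -0.01 equalled that of all genes. Akr1b8, an aldo-keto reductase, showed no overlap, at 19.1 to 34.8 CPM with air (median 28.4) and 36 to 62.7 CPM with smoke (median 42), for a log2FC of 0.73 (adjusted p = 0.029). Without X11, X151 or X159 in turn its adjusted p lay between 0.0548 and 0.0629, and without X11 and X91 it was 0.0564. Hmox1, heme oxygenase 1, did not pass, with medians of 109.5 CPM with air and 107.95 CPM with smoke (log2FC -0.02, adjusted p = 0.977).

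**Figure D2:**
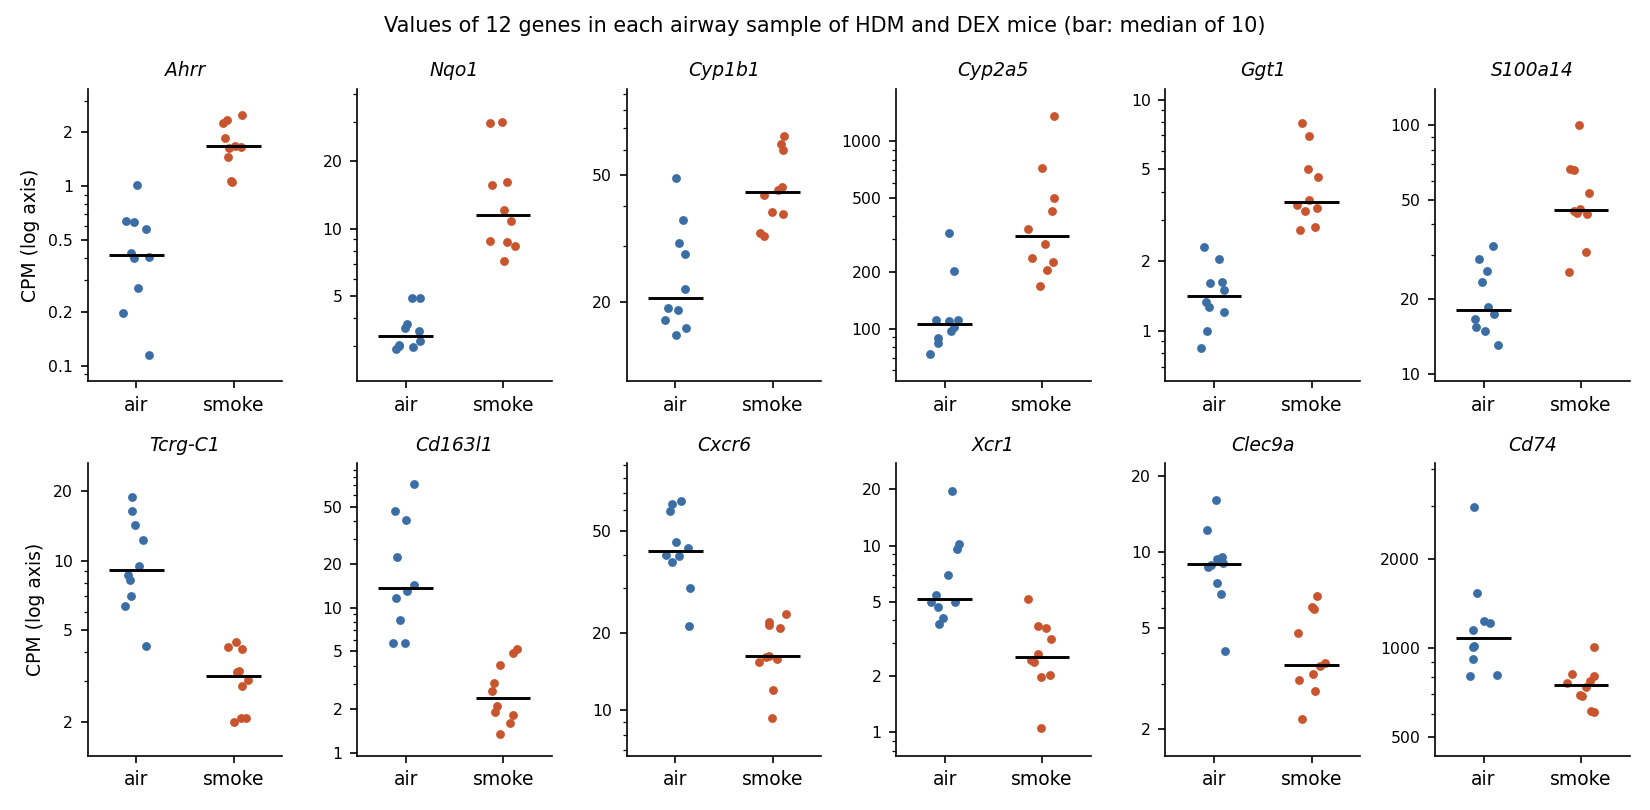
Values of 12 genes in each of the 20 samples, as CPM on a log axis, with a bar at the median of the 10 samples of a group. Ahrr, Nqo1 and Ggt1 are higher in every smoke sample than in any air sample, and Cd163l1 is lower in every smoke sample.

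The 12 called rises with the smallest p among protein-coding genes of at least 1 CPM also held genes outside xenobiotic metabolism. S100a14, an S100 protein of epithelium, led with 13.1 to 32.8 CPM (median 18) with air and 25.8 to 100.2 CPM (median 45.7) with smoke, 8 smoke samples lying above all air samples (log2FC 1.31, SE 0.17, adjusted p = 3.67e-07). Stac, an adaptor of calcium channels, did not overlap either, with medians of 0.461 and 1.09 CPM (log2FC 1.30, adjusted p = 0.000724). Agrp, a melanocortin receptor antagonist best known in the brain, had medians of 1.11 and 2.43 CPM (log2FC 1.14, adjusted p = 0.000173). Both Stac and Agrp were low in abundance. Itih2, a hyaluronan-binding chain of inter-alpha-trypsin inhibitor, rose from a median of 1.99 to 4.8 CPM (log2FC 1.22, adjusted p = 0.000434). Selp, the P-selectin of endothelium and platelets, rose from 6.8 to 12.3 CPM (log2FC 1.03, adjusted p = 0.0013). Vcan, the proteoglycan versican, went from 11.4 to 22 CPM (log2FC 1.15, adjusted p = 0.00174). For each of these 3 genes, 3 to 9 smoke samples exceeded all air samples. BC100530, one of several near-identical stefin genes and uncertain for that reason, had a log2FC of 1.73 (adjusted p = 0.00154), and Pappa2, a protease of IGF-binding proteins, one of 1.16 (adjusted p = 0.0106, 0.0533 without X11 and X91). Outside that rule and noted after its values were seen, Ano1, a calcium-gated chloride channel, showed no overlap, with a mean of 78.9 CPM with air and 120.98 CPM with smoke (log2FC 0.60, adjusted p = 7.92e-08). The chemokine scavenger Ackr3 was chosen likewise, with means of 20.6 and 33.7 CPM and no overlap (log2FC 0.70, adjusted p = 9.91e-05). The last of the 5 called rises without overlap was Atp13a5, a P-type ATPase of low level, at 0.0303 to 0.234 CPM with air and 0.307 to 0.963 CPM with smoke (log2FC 2.63, adjusted p = 0.0425). Its call was lost on leaving out any of 17 single samples, with an adjusted p of 0.0522 to 0.0659, and without X11 and X91 (0.0864).

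Among chemokines and cytokines, 2 of 13 monocyte genes and 1 of 17 neutrophil and inflammatory genes passed, all higher, beside 1.13% of all genes. Ccl2 (median 4.85 CPM with air, 8.71 with smoke) and Ccl7 (2.32 and 5.41 CPM), ligands of CCR2 that draw monocytes, had a log2FC of 1.07 and 1.25 (adjusted p = 0.0138 and 0.0109). In both genes all 10 smoke samples were above the air median, while the ranges overlapped. The adjusted p for Ccl7 was 0.0876 in edgeR and 0.061 in DESeq2, and with only the 20 samples in the limma-voom fit it was 0.0807 for Ccl7 and 0.0533 for Ccl2. Il23a, a subunit of interleukin 23, was at 0.136 to 0.424 CPM with air and 0.333 to 0.862 CPM with smoke (log2FC 1.08, adjusted p = 0.0171, 0.0508 without X159). The neutrophil chemokines Cxcl1 and Cxcl5 did not pass (log2FC 0.11 and -0.63, adjusted p = 0.901 and 0.41), and the sign for Cxcl1 turned with the method, to -0.057 in edgeR. Serpinb9b, a granzyme inhibitor family member, rose from a median of 2.95 to 5.75 CPM (log2FC 1.04, adjusted p = 0.0114). Of 12 neutrophil markers tested only Retnlg passed (log2FC 0.98, adjusted p = 0.0346), and the sum of the 13 markers was 672 to 1121 CPM with air and 731 to 1476 CPM with smoke.

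Of 26 T cell genes 6 fell with smoke, beside 2.33% of all genes. In bulk tissue fewer cells and less RNA per cell cannot be told apart. All 26 had a log2FC below 0, with a median of -0.61, and those that passed included Pdcd1, Cxcr6, Gzmk, Cd3g and Cd3e. Pdcd1, the checkpoint receptor PD-1 (chromosome 1, 94038305 to 94052553, minus strand), was at 4.14 to 15.3 CPM (median 9.74) with air and at 1.96 to 4.99 CPM (median 2.99) with smoke. Of the smoke samples 8 were below every air sample, and Pdcd1 fell by 1.61 on the log2 scale (SE 0.21, adjusted p = 3.03e-07). Cxcr6, a chemokine receptor of tissue-resident T cells (chromosome 9, 123806475 to 123811760, plus strand), was at 21.2 to 65.3 CPM (median 41.5) with air and at 9.3 to 23.8 CPM (median 16.2) with smoke, and fell by 1.35 (SE 0.18, adjusted p = 3.72e-07). Cd3g and Cd3e, chains common to all T cells, had a log2FC of -1.12 and -0.97 (adjusted p = 0.0145 and 0.0475). Cd8a did not pass, with medians of 6.13 CPM with air and 5.31 CPM with smoke (log2FC -0.11, adjusted p = 0.938).

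Of 18 gamma delta T cell genes, listed after the values were seen, 17 were tested, 10 fell and 1 rose. Of all genes 2.33% fell and 1.13% rose, but a list made this way is no test. The list median was -0.88. Cd163l1, a scavenger receptor typical of interleukin 17-producing gamma delta T cells (chromosome 7, 140218267 to 140231145, plus strand), was at 5.7 to 71.1 CPM (median 13.7) with air and at 1.34 to 5.22 CPM (median 2.4) with smoke. It was the only gene among the 54 called lower in which no smoke sample reached any air sample (log2FC -2.69, SE 0.38, adjusted p = 2.17e-06). Tcrg-C1, a constant segment of the gamma chain (chromosome 13, 19214103 to 19217024, plus strand), was at 4.25 to 18.9 CPM (median 9.1) with air and at 1.99 to 4.43 CPM (median 3.17) with smoke, with 9 smoke samples below all air samples (log2FC -1.67, SE 0.20, adjusted p = 7.92e-08). The variable segments Tcrg-V6 and Trdv4, which pair in the interleukin 17-producing subset, had medians of 1.27 and 2.06 CPM with air and 0.162 and 0.304 CPM with smoke. Tcrg-V6 had a log2FC of -2.83 (adjusted p = 0.000766) and Trdv4 one of -2.42 (adjusted p = 0.000143). Tcrg-C2, Tcrg-C4 and Tcrg-V4 fell by 1.10, 1.22 and 1.25 on the log2 scale, and segments of this kind resemble each other, so that single values are uncertain. Blk, a kinase of B cells and of this subset, fell by 1.34 (adjusted p = 0.00132). 5830411N06Rik, a relative of Cd163l1, passed more narrowly (log2FC -0.65, adjusted p = 0.0425). Leaving out any of 13 samples took its adjusted p to between 0.053 and 0.106, and it was 0.0615 in edgeR.

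Il17f, a cytokine of the same lineage, moved the other way. Of the 17 genes tested in the gamma delta T cell list, 15 had a log2FC below 0 and 2 above 0. Its values were 0.296 to 2.25 CPM (median 0.844) with air and 1.12 to 3.99 CPM (median 2.4) with smoke, and 6 smoke samples were above every air sample (log2FC 1.23, SE 0.35, adjusted p = 0.0321). The call was lost without X19, X79, X111 or X151 (adjusted p 0.0531 to 0.0691), and without X11 and X91 the adjusted p was 0.0544. In limma-voom with no filter on low counts the adjusted p for Il17f was 0.101. Itgae, the integrin CD103 found on resident T cells and on type 1 dendritic cells, was at 7.89 to 21.9 CPM (median 13.8) with air and at 3.55 to 10.7 CPM (median 6.47) with smoke (log2FC -1.12, SE 0.16, adjusted p = 3.69e-06), 8 smoke samples lying below all air samples.

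Type 1 conventional dendritic cell genes, also listed after the values were seen, fell in 8 of 13 and rose in none. Of all genes 2.33% fell, and this list is no test either. Its median was -0.50. Xcr1, the chemokine receptor that marks these cells (chromosome 9, 123852315 to 123862029, minus strand), was at 3.8 to 19.7 CPM (median 5.21) with air and at 1.05 to 5.17 CPM (median 2.54) with smoke. In 9 smoke samples it was below every air sample (log2FC -1.34, SE 0.27, adjusted p = 0.00132). Clec9a, their receptor for dead cells (chromosome 6, 129408862 to 129424763, plus strand), had medians of 8.97 and 3.58 CPM (log2FC -1.15, SE 0.21, adjusted p = 0.000378). For Clec9a 6 smoke samples were below every air sample, and all 10 were below the air median. Naaa, an acid amidase, did not overlap, at 106.5 to 151.2 CPM with air and 63.3 to 105.3 CPM with smoke (log2FC -0.61, adjusted p = 0.000766). Tlr11, a receptor for microbial profilin, and Wdfy4, needed for cross-presentation, had a log2FC of -1.25 and -0.42, and Sept3, a septin, fell from a median of 6.03 to 3.25 CPM (adjusted p = 0.00477). Irf8, their lineage factor, fell by 0.50 (adjusted p = 0.017), with 0.0629 without X11, 0.058 without X159 and 0.0672 without both X11 and X91.

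Of 10 MHC class II genes 7 fell, beside 2.33% of all genes, and all 10 had a log2FC below 0 (median -0.59). Cd74, the invariant chain, was at 804 to 2988 CPM (median 1083) with air and at 608 to 1008 CPM (median 753) with smoke, 7 smoke samples lying below all air samples (log2FC -0.66, SE 0.14, adjusted p = 0.00227). H2-Eb1 (log2FC -0.75, adjusted p = 0.00767), H2-Ab1 (-0.72, 0.0343) and H2-Aa (-0.59, 0.0171) encode chains of the class II molecules, and H2-DMa, H2-DMb1 and Ifi30 act in loading peptides onto them. Sample X11 was far above the other air samples in all of these but Ifi30, at 784 CPM for H2-Eb1 against 177.8 to 318 CPM in the other 9. Without X11 and X91 the adjusted p was 0.17 for H2-Ab1, 0.0785 for H2-Aa, 0.0699 for H2-DMa, 0.145 for H2-DMb1 and 0.066 for Ifi30, while Cd74 and H2-Eb1 still passed. Leaving out X11 alone took H2-DMa to 0.0559 and Ifi30 to 0.063, leaving out X159 alone took Ifi30 to 0.0557, and the call for H2-Aa was lost without X11 or X159. H2-Ab1 was lost without X11, X71, X79, X131, X159, X179 or X199, and H2-DMb1 without X11, X39, X59, X71, X79, X131 or X159. With only the 20 samples in the fit the adjusted p was 0.0575 for H2-Eb1, 0.0676 for H2-Aa and 0.0686 for H2-DMa. None of 27 B cell and plasma cell genes and none of 20 interferon genes passed in limma-voom, with medians of -0.33 and -0.28, although 5 immunoglobulin segments outside those lists were called lower.

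**Figure D3:**
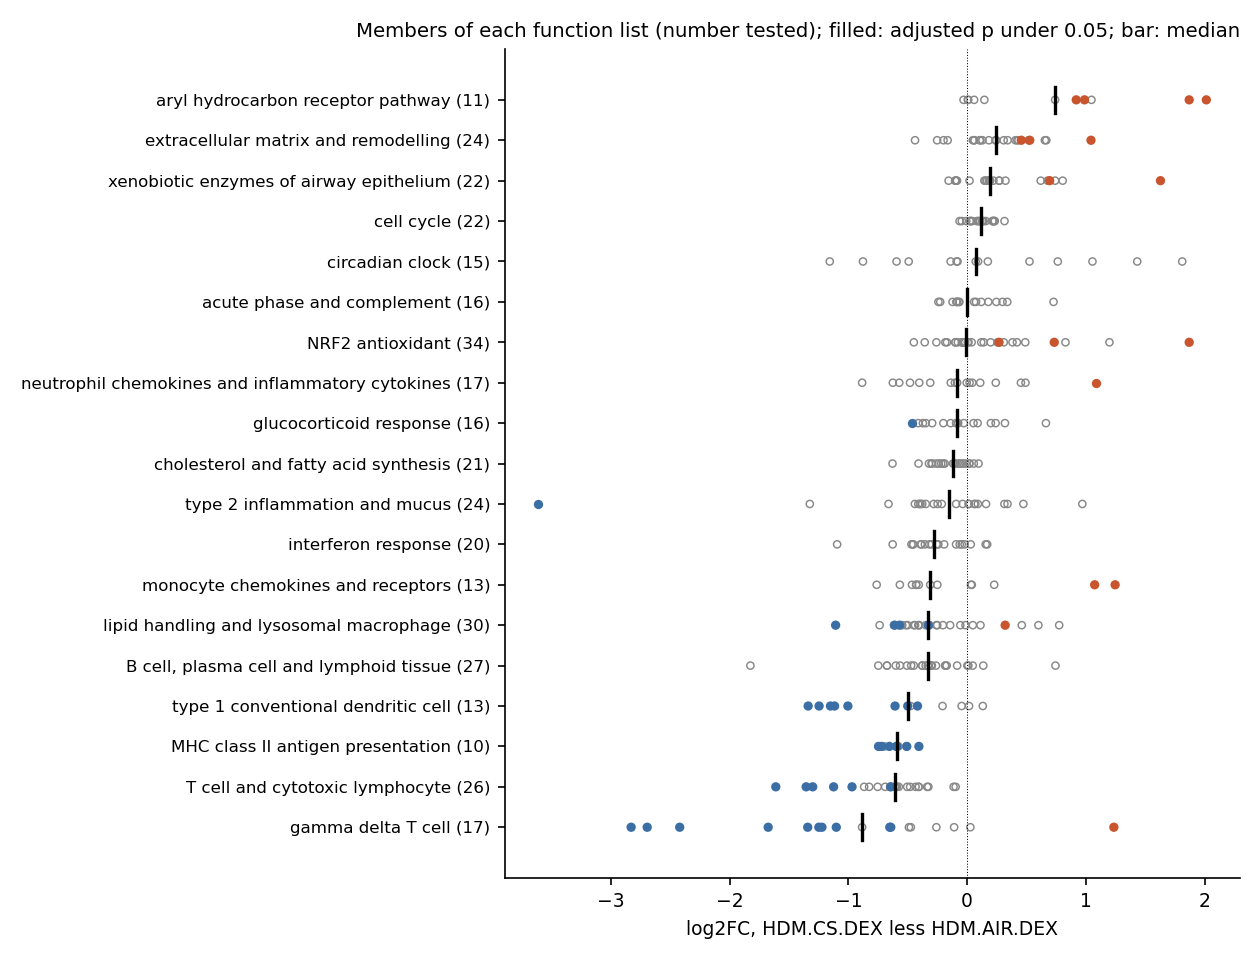
Log2FC of every tested member of the 19 function lists, ordered by median, with the number tested in brackets. T cell and MHC class II genes lie mostly below 0 and AhR genes above. Gamma delta T cell genes also lie mostly below 0. That list and the dendritic cell list were made after the values were seen. The other lists were chosen with earlier results of these data known, so the place of any list in the order is no test.

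Several further genes with the smallest p among the falls have less settled roles in the airway. Podnl1, a leucine-rich proteoglycan, had medians of 12.8 CPM with air and 5.92 CPM with smoke (log2FC -1.24, adjusted p = 1.73e-05). Arnt2, a relative of the AhR partner ARNT, went from 10.1 to 5.17 CPM (log2FC -1.09, adjusted p = 3.19e-05). In both genes 9 smoke samples were below every air sample. Crmp1, a collapsin response mediator, Ly6g5b, a Ly6 family protein, and Acsbg1, an acyl-CoA synthetase, had a log2FC of -1.13, -1.41 and -1.17 (adjusted p = 0.00043, 0.000483 and 0.00132). Apol7e, an apolipoprotein L, was low, with medians of 1.04 and 0.222 CPM (log2FC -2.08, adjusted p = 0.00696).

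Mucus and macrophage genes gave mixed results. Clca1, a secreted protein of mucous cells (chromosome 3, 145003817 to 145032776, minus strand), was at 10.4 to 63 CPM (median 26.4) with air and at 0.0922 to 16.6 CPM (median 3.13) with smoke. It had the largest fall of all genes called, and 9 smoke samples were below every air sample (log2FC -3.61, SE 1.05, adjusted p = 0.039). The call was lost on leaving out any of 15 single samples (adjusted p 0.0505 to 0.0742) and without X11 and X91 (0.0584). In limma-voom its adjusted p was 0.328 with only the genes that reached a CPM of 10 in 9 samples. With no filter on low counts it was 0.0797. Clca1 was the only member of 24 type 2 and mucus genes to pass. Muc5ac, the gel-forming mucin, had medians of 8.29 and 6.47 CPM and did not pass (log2FC -0.41, adjusted p = 0.721). Mmp12, macrophage elastase, was at 374 to 2192 CPM (median 1025) with air and at 263 to 765 CPM (median 503) with smoke, and all smoke samples were below the air median (log2FC -1.11, SE 0.31, adjusted p = 0.0335). Leaving out X19, X31, X39, X59, X71, X111, X151, X159 or X171 took it to between 0.0536 and 0.0805, and without X11 and X91 it was 0.0752. In the list of 30 genes of lipid-laden and lysosomal macrophages, 4 passed lower, beside 2.33% of all genes. They were Mmp12, the phosphatase Acp5 and the cathepsins Ctsb and Ctss. The fatty acid receptor Cd36 passed higher by 0.32. Acp5 had a log2FC of -0.61 (adjusted p = 0.0215) and was lost without X59 or X159 (0.0524 to 0.0639) and without X11 and X91 (0.0544). Gpnmb, a glycoprotein of foamy macrophages, did not pass (log2FC -0.41, adjusted p = 0.561). Summed alveolar macrophage markers overlapped widely, at 1308 to 5136 CPM with air and 1457 to 3439 CPM with smoke.

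Between these groups, both given DEX, 1 of 16 genes that respond to steroid passed, lower with smoke, beside 2.33% of all genes. It was Sgk1, a kinase, with medians of 268 and 209 CPM (log2FC -0.46, adjusted p = 0.0475), and its call was lost on leaving out any of 17 samples and without X11 and X91 (0.0785). Fkbp5, a co-chaperone of the glucocorticoid receptor, had medians of 35.4 and 39.9 CPM (log2FC 0.24, adjusted p = 0.627). Tsc22d3, which encodes GILZ, had medians of 92.3 and 85.1 CPM (log2FC -0.35, adjusted p = 0.438). No member of the clock (15), cell cycle (22), acute phase (16) or cholesterol (21) lists passed in limma-voom. Spi1, which encodes the myeloid factor PU.1, and the myeloid genes Il1rn, Ptafr, Itgax and Clec7a had a log2FC of -0.46, -0.48, -0.37, -0.74 and -0.59, and none passed (adjusted p 0.104 to 0.3). With both tissues in one fit Spi1 (adjusted p = 0.0463) and Itgax (0.025) passed, with only the 20 samples in the fit Itgax did (0.0371), and with sample quality weights Ptafr did (0.0444).

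Some matrix and smooth muscle genes were higher with smoke. Col6a3, a collagen VI chain, was at 33.3 to 91.3 CPM (median 74.2) with air and 79 to 117.2 CPM (median 101.7) with smoke (log2FC 0.53, SE 0.12, adjusted p = 0.00702). Timp1, an inhibitor of metalloproteinases, had medians of 17.3 and 28.5 CPM (log2FC 1.04, SE 0.32, adjusted p = 0.0487), and the call was lost on leaving out any of 17 samples and without X11 and X91 (0.0785). With Sparc, 3 of 24 matrix genes passed higher and none lower, beside 1.13% and 2.33% of all genes. The median of the 24 was 0.24. The smooth muscle genes Acta2, Myh11, Tagln and Cnn1 passed among 8 markers, with a log2FC of 0.89, 0.89, 0.88 and 1.10 (adjusted p = 0.0429, 0.0411, 0.0318 and 0.0471). In each, 7 smoke samples were above all air samples and the others lay within their range. The sum of the 8 markers was 415 to 765 CPM with air and 436 to 1270 CPM with smoke. Leaving out 1 sample ended these calls, any of 15 for Acta2, 15 for Myh11 and 16 for Cnn1, and X11, X59, X99, X159 or X179 for Tagln. Without X11 and X91 the adjusted p was 0.0879 for Acta2, 0.124 for Myh11, 0.0618 for Tagln and 0.092 for Cnn1. All 10 cardiac muscle markers also had a log2FC above 0 (median 0.74) without passing, and their sum ran from 161.8 to 1847 CPM with air and from 175.7 to 1496 CPM with smoke. Whether the amount of muscle dissected with the airway took part in these differences was not tested.

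The same contrast was available in HDM mice without DEX, and the difference between both effects was tested as an interaction in the same limma-voom model. It passed in 87 genes in which the effect was higher under DEX (0.483%) and in 14 in which it was lower (0.0777%). The effects share no samples. Cell cycle genes stood in the first set: 6 of 22, Mcm2 to Mcm6 and Kif11, had differences of 0.38 to 1.10. Uhrf1, a factor of DNA methylation upkeep in dividing cells, was at medians of 5.93 and 7.24 CPM with air and smoke under DEX (log2FC 0.34, adjusted p = 0.33) and had a log2FC of -0.81 (adjusted p = 2.48e-06) without DEX. Psat1, of serine synthesis, had 0.42 with DEX and -0.40 without (difference 0.83, adjusted p = 0.000776), and Lig1, a DNA ligase, 0.09 and -0.49 (difference 0.58, adjusted p = 0.00161). Serpinb9b had 1.04 and -0.83 (difference 1.88, adjusted p = 0.00662), and Timp1 1.04 and -0.68 (difference 1.72, adjusted p = 0.0337). Timp1 lost its difference without X151, X159 or X171. In limma-voom it was also lost with no filter on low counts (adjusted p = 0.0566) and with both tissues in one fit (0.0524). In the other direction, Gstm1, a glutathione transferase, had 0.20 with DEX and 1.01 without (difference -0.81, adjusted p = 0.00117), Dpep1, a dipeptidase, -0.31 and 1.04, and Thra, a thyroid hormone receptor, 0.10 and 0.62. Cyp1a1 had 1.05 with DEX and 5.39 without, a difference of -4.35 that did not pass in limma-voom (adjusted p = 0.0697). It passed in edgeR (adjusted p = 0.0059), in DESeq2 (0.00018) and with sample quality weights in limma-voom (0.0427), and not with the stricter filter (0.587). For Ahrr the effects were 2.01 and 2.07, and the 95% confidence interval of the difference, -0.05, reached from -0.76 to 0.65. The number with a higher effect depended on single samples, at 23 without X159, 52 without X39, 52 without X171, 53 without X31 and 57 without X111, and at 0.772% of genes without X11 and 0.889% without X131. Those with a lower effect numbered 6 without X159, 7 without X39, X91 or X171, 9 without X51, X111, X139 or X151, 23 without X199 and 39 without X131.

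**Figure D4:**
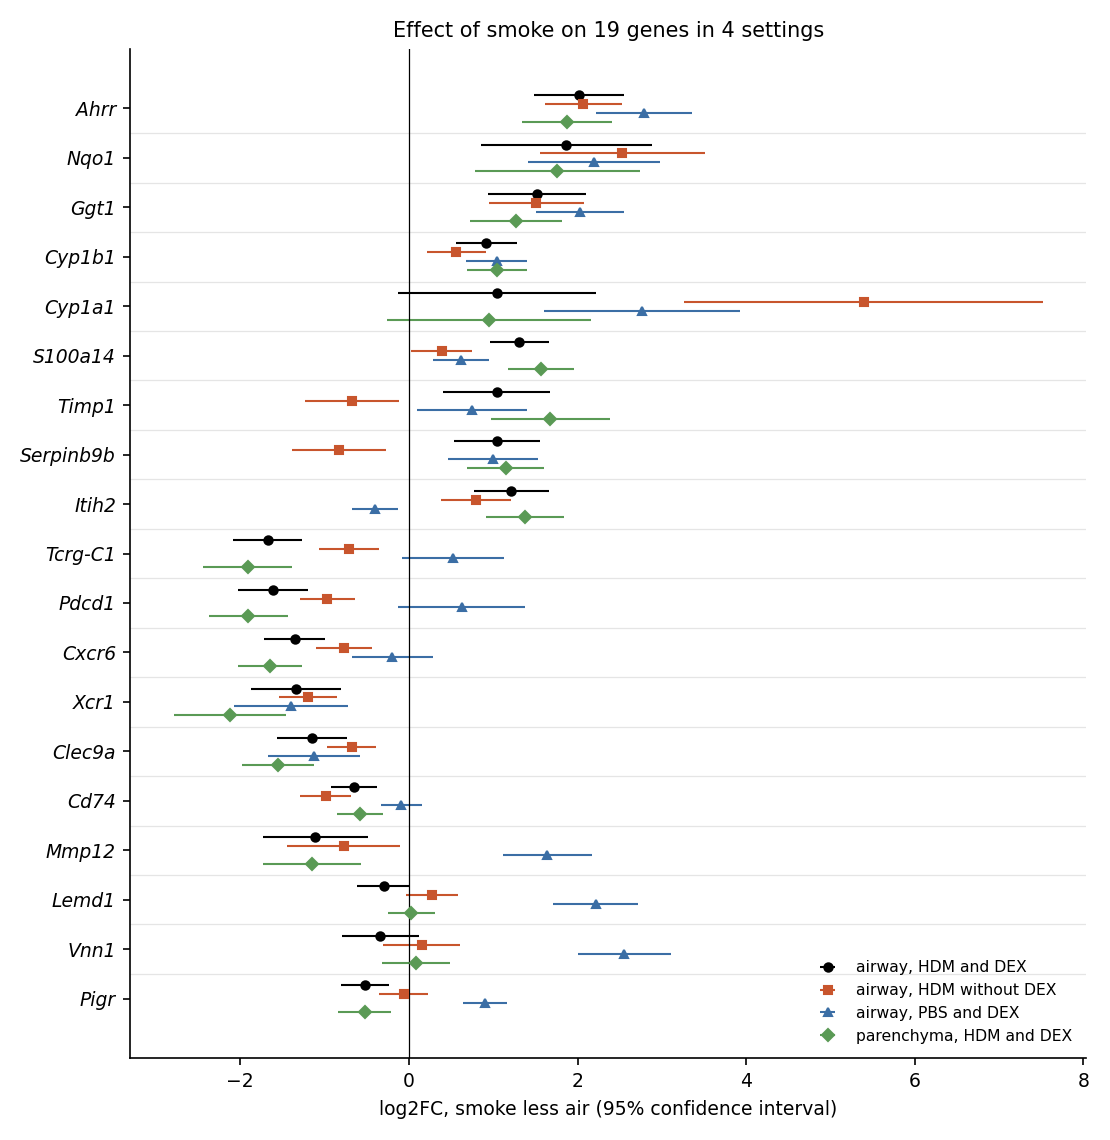
Log2FC of smoke over air with 95% confidence intervals for 19 genes in 4 settings: airway with HDM and DEX, airway with HDM without DEX, airway with PBS and DEX, and parenchyma with HDM and DEX. Ahrr and Nqo1 are above 0 in all 4, and Mmp12, Lemd1, Vnn1 and Pigr lie highest with PBS.

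With DEX throughout, the smoke effect differed between HDM and PBS mice in more genes, 0.772% with a higher effect under HDM and 370 genes with a lower one (2.05%). In that direction 12 of 30 lipid macrophage, 5 of 17 neutrophil chemokine, 5 of 13 monocyte chemokine and 6 of 16 acute phase members passed. Mmp12 had a log2FC of -1.11 with HDM and 1.64 with PBS, a difference of -2.75 (adjusted p = 7.34e-06). Its medians were 17 CPM with PBS and air, 64.9 CPM with PBS and smoke, 1025 CPM with HDM and air and 503 CPM with HDM and smoke, so that air samples of HDM mice already held more than smoke samples of PBS mice. Pigr, which carries IgA across epithelium, was at 1311 to 1949 CPM (median 1617) with air and at 890 to 1323 CPM (median 1148) with smoke under HDM, a log2FC of -0.52 (adjusted p = 0.0318), and had 0.90 under PBS (difference -1.42, adjusted p = 1.07e-06). The smoke effect on Pigr under HDM no longer passed without X11, X59, X71, X79, X91, X111, X139 or X159 in turn. Without X11 and X91 together its adjusted p was 0.11. Vnn1, a pantetheinase, and Lemd1, a nuclear envelope protein, did not pass under HDM (log2FC -0.34 and -0.30) and had 2.56 and 2.21 under PBS. Retnla (0.47 with HDM, 2.54 with PBS), Cxcl5 (-0.63 and 1.91), Cxcl1 (0.11 and 1.63), Il1rn (-0.48 and 1.33) and Ptafr (-0.37 and 0.56) differed in the same direction. The difference for Cxcl1 was lost without X31 or X59, and without X11 and X91 together (adjusted p = 0.0808). Arnt2 had -1.09 with HDM and 0.93 with PBS (difference -2.02, adjusted p = 2.99e-06).

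**Figure D5:**
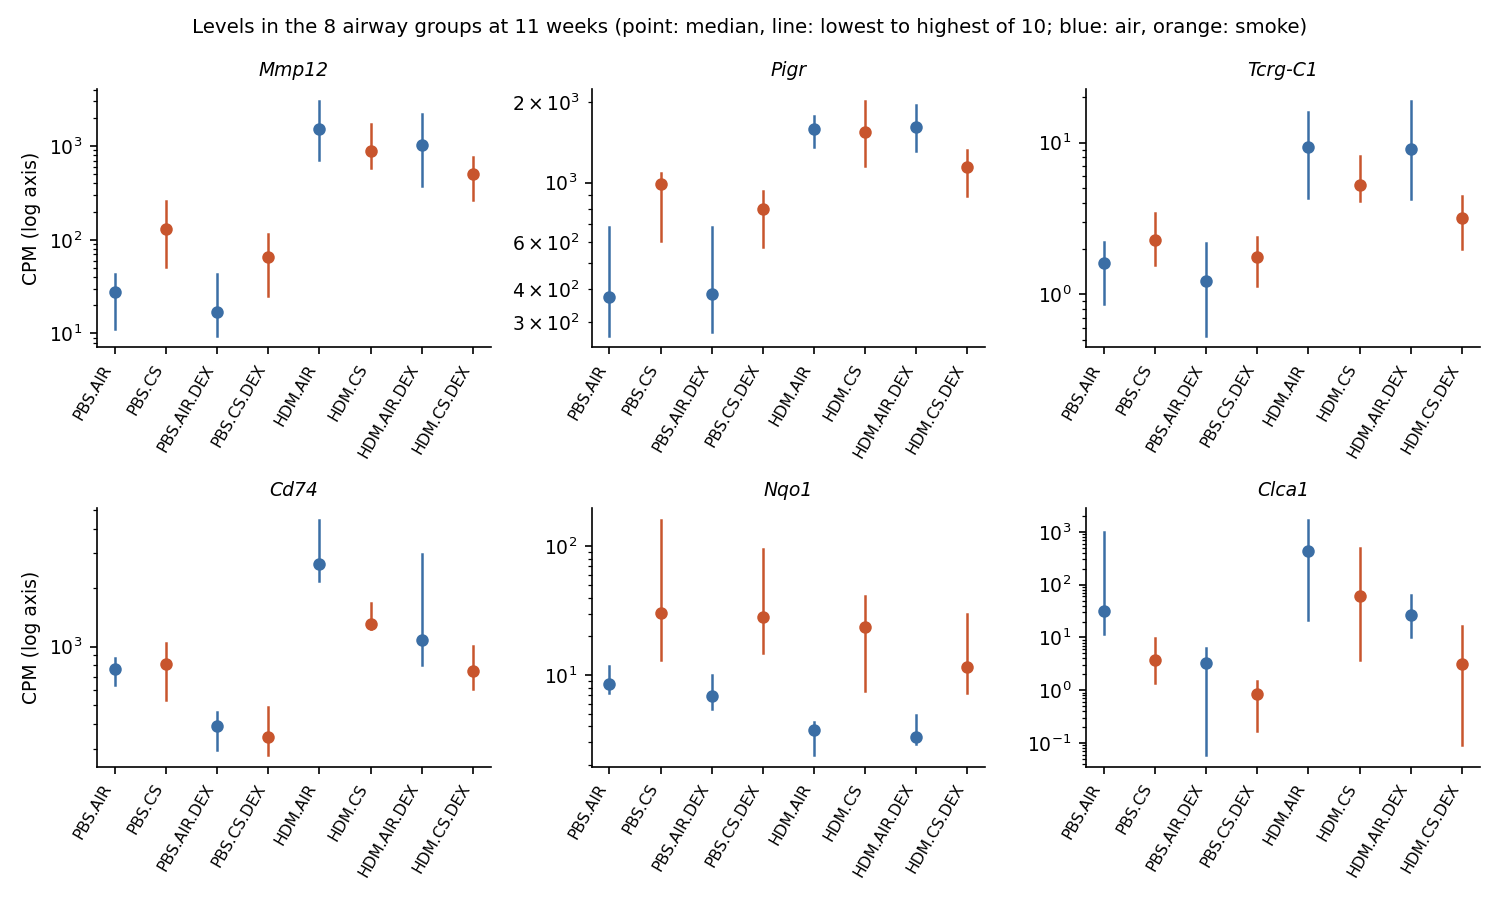
Levels of 6 genes in the 8 airway groups at 11 weeks, as CPM on a log axis, with a point at the median and a line from the lowest to the highest of 10 samples. The medians of Mmp12 and Pigr are higher with smoke in PBS mice and lower with smoke in HDM mice, and Nqo1 is higher with smoke in each pair.

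Of 26 T cell genes 2, and of 17 gamma delta T cell genes 5, had a lower effect with HDM than with PBS, beside 2.05% of all genes. The gamma delta T cell list was made after the values were seen, so its count is no test. Tcrg-C1 had -1.67 with HDM and 0.52 with PBS (difference -2.20, adjusted p = 6.31e-05), Pdcd1 -1.61 and 0.62 (difference -2.24, adjusted p = 0.00075), and Cxcr6 -1.35 and -0.19 (difference -1.16, adjusted p = 0.0186). Crmp1, 5830411N06Rik and the segment Tcrg-V4 differed likewise (-1.25, -1.53 and -1.83). Among gamma delta T cell genes that fell, the difference did not pass in limma-voom for Tcrg-V6 (-2.44, adjusted p = 0.167), Trdv4 (-2.15, 0.0575), Tcrg-C2 (-1.28, 0.0769) and Blk (-0.91, 0.36). In DESeq2 it passed for Tcrg-V6 (adjusted p = 0.0191), Trdv4 (0.000347) and Tcrg-C2 (0.0183), and in edgeR for Trdv4 (0.00179) and Tcrg-C2 (0.0323). Cd163l1 (-2.33, adjusted p = 0.0366), Itgae (-0.88, 0.0357) and Tcrg-C4 (-1.08, 0.0283) also passed, but Cd163l1 was lost without X59, X119 or X159, Tcrg-C4 without X159, and Itgae without X11, X59, X71, X111, X119 or X139 in turn (adjusted p 0.0501 to 0.0691). With the stricter filter in limma-voom the difference did not pass for Cd163l1 (adjusted p = 0.417), Pdcd1 (0.076) or Itgae (0.0755). For Cd163l1 it also failed with quality weights (0.067). For Itgae it failed with no filter on low counts (0.0551) and without X11 and X91 (0.0637). Itgae was the only one of 13 type 1 dendritic cell genes in which the difference passed. It did not pass for Xcr1 and Clec9a, with Xcr1 at -1.34 with HDM and -1.40 with PBS and Clec9a at -1.15 and -1.13, and 95% confidence intervals of the difference from -0.80 to 0.92 and from -0.71 to 0.66. Of genes with a higher effect under HDM, Itih2 had 1.22 against -0.40 (difference 1.62, adjusted p = 4.23e-05), Cdh13, an atypical cadherin of vessels and muscle, 0.65 against -0.45, and Upk1a, a uroplakin, 0.16 against -1.25.

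In the parenchyma of mice given the same agents, the difference from the smoke effect in the airway passed in 0 of 18250 genes tested in either direction (0%), with 395 genes at an unadjusted p under 0.05. EdgeR found 1 gene and DESeq2 1 gene for this difference. The 34 genes called higher in airway had a median log2FC of 1.39 in parenchyma, and the 54 called lower one of -1.54. Airway and parenchyma samples may come from the same mice, which the labels do not tie, so the parenchyma is not an independent replicate. Ahrr had 1.88 in parenchyma, Cd163l1 -3.18 and Xcr1 -2.12, each passing there. The smooth muscle genes, at 0.15 for Acta2 and -0.04 for Myh11, did not pass in the parenchyma.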

How the data were processed

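RNA of 20 airway samples, 10 per group, was compared, of 203 samples in the series, within the 80 airway samples taken at 11 weeks. Per the labels the authors used bcl2fastq 2.20.0.422, STAR 2.5.1b, RSEM 1.2.31 and kallisto 0.44.0 with the mm10 build, in roles that the labels do not give. The deposited values are estimated counts per gene, 20.3% of the nonzero ones not whole, which were rounded here. Strand was not stated in the sources used here. Symbols came from the GENCODE M21 annotation, which matched 42462 of 43346 identifiers without their version and 23106 with it. CPM are per 1000000 counts after TMM scaling. Genes were kept where at least 9 samples reached the CPM that 10 counts would make at the median depth.

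Fits used limma 3.58.1 (voom, one mean per group, Benjamini-Hochberg over all genes) with edgeR 4.0.16 for TMM, in R 4.3.3; genes called had an adjusted p under 0.05 and a log2FC of at least 1 in size. Differences between smoke effects were interactions, for the parenchyma in a fit of all 160 samples at 11 weeks. Depths in the airway samples were 22638626 to 40240733 counts. Scripts were tested on simulated data. Other settings tried were the quasi-likelihood test of edgeR, DESeq2 1.42.0 and its size factors, other filters, both tissues, quality weights, a block, the 20 samples alone and each sample left out. Leaving out X11 and X91 was added after seeing the data.

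Genes were named by a rule: the 12 rises and 12 falls of smallest p among called protein-coding genes with a mean of at least 1 CPM in the higher group, the 3 largest in each direction, 18 preset genes, up to 2 per list and 3 per direction and difference. Genes outside it include Ugt1a6a, Ahr, Aldh3a1, Hmox1, Cd8a, Cd3g, Cd3e, Retnlg, Cd36, Ctsb and Ctss, taken from the lists without a rule. Atp13a5, smooth muscle genes and MHC class II genes other than H2-Eb1 and H2-Ab1 were also outside it. Ano1 and Ackr3 are said above to be chosen after their values were seen. The members and lists were chosen with earlier results of these data known. No column of a fold change or p-value of the authors was used. The values of 1 gene that passed are not reported here.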

Additional observations from a re-analysis of the deposited data

Results flagged for a closer look

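Some single samples lay far from the other 9 of their group, by a gap to the nearest sample that was large against the group's range. This was found in 23 of the groups of 10 examined (each of 88 named genes in both groups), and chance gives about 1 in 20. Sample X11 with air was highest for H2-Eb1 (784 CPM), H2-Ab1 (701 CPM), H2-Aa (964 CPM), H2-DMa (137.2 CPM), H2-DMb1 (91.8 CPM), Cd74 (2988 CPM), Irf8 (106.8 CPM) and Tlr11 (12.1 CPM). Sample X151 with air was highest for Fkbp5 (77.3 CPM, others up to 44.8 CPM) and lowest for Cxcl5 (33.6 CPM), Col6a3 (33.3 CPM) and Lemd1 (6.61 CPM). Sample X159 with smoke was highest for Fkbp5 (84.7 CPM, others up to 54.9 CPM), Timp1 (88.2 CPM), Psat1 (28.4 CPM) and Uhrf1 (15 CPM) and lowest for Agrp (1.04 CPM). Single values set apart were X99 with smoke for Itih2 (1.63 CPM) and H2-DMb1 (43 CPM), X39 with smoke for Tsc22d3 (60.2 CPM), X91 with air for Pappa2 (0.231 CPM), X31 with air for Acsbg1 (2.11 CPM) and X71 with air for Naaa (151.2 CPM).

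The smoke effect with DEX differed from that without DEX, by the interaction in limma-voom, for Serpinb9b by 1.88, Timp1 by 1.72, Uhrf1 by 1.15, Psat1 by 0.83 and Lig1 by 0.58 on the log2 scale, and for Dpep1 by -1.36, Gstm1 by -0.81 and Thra by -0.52.

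The smoke effect with HDM differed from that with PBS, by the same kind of test, for Itih2 by 1.62, Upk1a by 1.41 and Cdh13 by 1.09. Among innate and epithelial genes the difference was -2.89 for Vnn1, -2.75 for Mmp12, -2.54 for Cxcl5, -2.51 for Lemd1, -2.06 for Retnla, -1.81 for Il1rn, -1.52 for Cxcl1, -1.42 for Pigr, -0.93 for Ptafr and -0.57 for Ifi30. Among lymphocyte and other genes it was -2.33 for Cd163l1, -2.24 for Pdcd1, -2.20 for Tcrg-C1, -2.02 for Arnt2, -1.83 for Tcrg-V4, -1.53 for 5830411N06Rik, -1.25 for Crmp1, -1.16 for Cxcr6, -1.08 for Tcrg-C4 and -0.88 for Itgae. How these differences arise was not tested.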

How the results depend on the processing

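Shares of genes moved with the processing, and the cause was not tested. They are percentages of the genes in each fit, which were 11960 with a CPM of at least 10 in 9 samples and 29062 without a filter. Genes called higher, 0.189%, were 0.289% in edgeR, 0.355% in DESeq2, 0.092% with the stricter filter, 0.289% with quality weights and 0% in limma treat, and 0.122% to 0.25% without 1 replicate. Genes called lower, 0.3%, were 0.466% in DESeq2, 0.15% with the stricter filter, 0.533% with quality weights, 0.197% in a fit of the 20 samples alone, 0.194% without X11 and X91 and 0% in limma treat, and 0.183% to 0.311% without 1 replicate. Genes higher at an adjusted p under 0.05, 1.13%, were 1.82% in DESeq2, 0.423% without a filter, 1.73% with both tissues, 2.7% with quality weights, 2.11% with the block, 0.571% without X11 and X91 and 0.622% to 1.32% without 1 replicate. Those lower, 2.33%, were 0.771% without a filter, 4.8% with quality weights, 4.03% with the block, 1.47% in the 20 samples alone, 1.08% without X11 and X91 and 0.805% to 2.24% without 1 replicate. For DEX, differences above 0, 0.483%, were 0.272% in edgeR, 0.777% in DESeq2, 0.158% without a filter, 0.274% with both tissues, 0.749% with the block and 0.128% to 0.889% without 1 replicate. Those below 0, 0.0777%, were 0.161% in DESeq2, 0.0753% with the stricter filter, 0.0275% without a filter, 0.139% with quality weights, 0.25% with the block and 0.0333% to 0.217% without 1 replicate. For HDM, differences above 0, 0.772%, were 1.3% with both tissues, 1.61% with the block, 0.505% without X11 and X91 and 0.594% to 0.966% without 1 replicate, and those below 0, 2.05%, were 3.5% with the block and 1.47% to 2.39% without 1 replicate. The difference between tissues, 0 genes, was 0.00548% (1 gene) in edgeR and in DESeq2. Of 857 smoke effects of named genes under other processing, 792 kept direction and side of the threshold, 57 no longer passed, 6 newly passed (Spi1, Itgax and Ptafr) and 2 turned sign, both for Cxcl1, at -0.057 in edgeR and -0.052 in DESeq2, and Cxcl1 ran from -0.11 to 0.25 without 1 replicate.

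No paired analysis was possible because each code belongs to 1 sample and no label ties samples across groups. A block on runs of 20 codes, each holding 1 sample per group, was fitted, although deviations within a run correlated at a median of 0.095 (range -0.48 to 0.36) and 5 of 10 runs passed 0.1. Under the block 49 genes were called higher and 78 lower, the adjusted p was 0.0304 for Spi1 and 0.0429 for Itgax, and that of the difference by DEX was 0.0311 for Cyp1a1. Genes under about 1 CPM rest on few counts, and intervals cover the spread between these samples only.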
